A study of Homo sapiens with 6 samples.

Results

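The genes of the mitochondrial ribosome were followed in the human colorectal cancer line HCT116 across 6 samples. The 3 titled HCT116-CSE are taken as treated with CSE, and the 3 titled HCT116 are called WT here. CSE is not spelled out in the labels and is read here as cigarette smoke extract, since the series title names smoking. Its dose, the exposure time and any solvent on the WT cells are not stated in the labels, and all 6 samples are of the same line. The members are the 79 genes, of 20263 in the deposited table, whose symbol is MRPL or MRPS followed by a digit, plus DAP3. By symbol, 49 belong to the large subunit (MRPL) and 30 to the small subunit (29 MRPS genes and DAP3).

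Mitochondria keep a ribosome of their own, descended from that of bacteria, which makes the hydrophobic core subunits of the respiratory chain and of the ATP synthase from mitochondrially encoded mRNAs. Its rRNAs come from mitochondrial DNA, whereas every protein of it is encoded in the nucleus, made in the cytosol and imported. The small subunit reads the mRNA, and the large subunit joins the amino acids and passes the chain to the inner membrane. Some of the proteins have bacterial counterparts and others are found only in mitochondria. The symbols do not always give the subunit: in ribosome structures the products of MRPS30 and MRPS18A lie in the large subunit, and the product of MRPS36 is now placed in the alpha-ketoglutarate dehydrogenase complex.

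The 5 promoter windows below, each from 250 bases before to 50 bases after the RefSeq start (GRCh38.p14), belong to the genes with the largest called rises and falls that had an entry, and to a start region that a large-subunit and a small-subunit gene share. MRPL9 (chr1:151763447-151763746, minus strand) and MRPL11 (chr11:66438799-66439098, minus strand) were higher with CSE. MRPS25 (chr3:15065266-15065565, minus strand) and MRPL48 (chr11:73787624-73787923, plus strand) were lower. MRPL46 (chr15:88467339-88467638, minus strand) starts head to head with MRPS11. Letters are written 5′ to 3′ along the gene, and capitals mark matches to CCGGAAG, the core bound by ETS factors such as GABPA, or to AAGATGG, the core bound by YY1, on either strand.
MRPL9: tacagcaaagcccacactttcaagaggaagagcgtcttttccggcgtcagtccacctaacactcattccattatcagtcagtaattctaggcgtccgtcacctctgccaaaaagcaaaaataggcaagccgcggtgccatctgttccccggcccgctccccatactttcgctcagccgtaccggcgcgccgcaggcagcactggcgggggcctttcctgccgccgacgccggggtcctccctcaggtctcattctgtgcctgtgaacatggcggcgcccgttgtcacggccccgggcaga
MRPL11: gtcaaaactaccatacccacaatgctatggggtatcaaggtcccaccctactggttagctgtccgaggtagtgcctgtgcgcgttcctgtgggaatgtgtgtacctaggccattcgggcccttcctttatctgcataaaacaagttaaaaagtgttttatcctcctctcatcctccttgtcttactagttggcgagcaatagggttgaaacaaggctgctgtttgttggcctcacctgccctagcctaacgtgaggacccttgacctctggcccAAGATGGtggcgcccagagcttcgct
MRPS25: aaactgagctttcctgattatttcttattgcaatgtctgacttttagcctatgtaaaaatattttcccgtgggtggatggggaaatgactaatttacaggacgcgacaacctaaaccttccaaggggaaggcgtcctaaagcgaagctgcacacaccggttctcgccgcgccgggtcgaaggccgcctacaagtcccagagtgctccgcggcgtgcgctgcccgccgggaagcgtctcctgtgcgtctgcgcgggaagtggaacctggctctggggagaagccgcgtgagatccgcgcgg
MRPL48: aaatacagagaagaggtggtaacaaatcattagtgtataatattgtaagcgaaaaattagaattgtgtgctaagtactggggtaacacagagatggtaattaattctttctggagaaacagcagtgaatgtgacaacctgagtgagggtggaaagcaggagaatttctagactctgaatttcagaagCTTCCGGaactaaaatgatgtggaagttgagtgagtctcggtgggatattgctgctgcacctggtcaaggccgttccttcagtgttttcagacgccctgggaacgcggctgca
MRPL46: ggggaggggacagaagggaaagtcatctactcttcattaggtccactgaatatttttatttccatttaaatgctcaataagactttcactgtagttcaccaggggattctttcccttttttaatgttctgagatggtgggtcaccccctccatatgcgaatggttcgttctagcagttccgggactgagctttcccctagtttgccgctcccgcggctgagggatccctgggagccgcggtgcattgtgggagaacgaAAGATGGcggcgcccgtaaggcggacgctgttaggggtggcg

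Capitals appear in MRPL11 and MRPL46 (the YY1 core, just after the start) and in MRPL48 (the ETS core on the reverse strand, before the start). The windows of MRPL9 and MRPS25 hold no match to these cores, nor to GCATGCG (NRF1 core) or CACGTG (E-box). RefSeq windows were found for 70 of the 79 members. MRPL2, MRPL10, MRPL13, MRPL15, MRPL21, MRPL23, MRPL35, MRPS28 and MRPS36 had no entry. Over these 70, AAGATGG was present in 23 (32.9%), against 7.57% of the promoters of 10303 genes tested and 6.06% of all 27305 RefSeq promoters. CCGGAAG was present in 29 (41.4%), against 19.0% of genes tested and 10.7% of all promoters. GCATGCG was found in 7 (against 6.39% of genes tested and 4.13% of all promoters), and CACGTG in 6 (8.57%, against 10.1% and 7.43%). The ETS core was present in 17 of 42 large-subunit and 12 of 28 small-subunit windows, and the YY1 core in 14 and 9. Among members called higher with CSE 4 of 19 windows held the ETS core and 7 the YY1 core, among those called lower 5 of 10 held each, and among the 41 not called 20 held the ETS core and 11 the YY1 core. These matches are letters in a window and not tests of binding.

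The files hold TPM, which is corrected for transcript length and sums to the same total in every library, so that depth is unknown and every value is a share. Each sample had 12640 to 12778 genes at 1 TPM or more. The epithelial genes EPCAM (306 to 360 TPM), KRT8, KRT18, KRT19 and CDH1 were present, CDX2 was at 8.29 to 10.5 TPM and VIL1 at 0.03 to 0.05 TPM, while PTPRC, CD3E, COL1A2, DCN and CDH5 did not exceed 0.08 TPM. PECAM1 reached 0.18 TPM, and VWF was at 0.50 to 0.57 TPM in CSE and 0.34 to 0.58 TPM in WT. CD68 was at 11.7 to 12.7 TPM in CSE and 17.1 to 17.8 TPM in WT, and COL1A1 at 36.95 to 37.5 TPM in CSE and 42.6 to 44.8 TPM in WT; their part in the results was not tested. Mitochondrially encoded genes held 25.5% to 25.8% of a CSE library and 27.0% to 30.2% of a WT library. Cytosolic ribosomal protein genes held 12.0% to 13.0% in CSE and 10.9% to 11.5% in WT, with the highest share in CSE replicate 3.

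The 79 members passed the filter on low values (1 TPM or more in 3 or more of the 6 libraries) and none was listed at 0. Together they held 0.493%, 0.489% and 0.512% of the 3 CSE libraries and 0.497%, 0.484% and 0.469% of the 3 WT libraries. The ranges of the groups overlapped. Single members differed widely in level: the mean TPM over the 6 samples ran from 1.62 for MRPS24 to 211 for MRPS34, a 130.4-fold span, with a median of 57.1. Replicates were close, with a median coefficient of variation of 3.48% within CSE and 3.91% within WT.

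The lowest members were mostly genes whose exons overlap another gene. In GENCODE 29, 16 members share exon bases on the same strand with another gene, and 7 share at least 20% of them. These 7 had a median level of 8.10 TPM, against 63.3 TPM for the other members, and of the 7 members under 15 TPM on average 5 were among them. MRPS24, at 1.41 to 1.76 TPM in CSE and 1.46 to 1.99 TPM in WT, shares 23.2% of its exon bases with the read-through gene URGCP-MRPS24, which the table lists at 0 in every sample. MRPL53 (mean 4.10 TPM, 45.2% shared with CCDC142), MRPL38 (4.22 TPM, 37.5%), MRPS17 (8.10 TPM, 27.0%) and MRPS28 (13.9 TPM, 35.8%) were the other low ones. MRPL12 (43.8 TPM) shares 68.2% and MRPL33 (73.1 TPM) 21.1%, so that the relation has exceptions. How the authors counted shared bases is not stated in the labels, its part in these levels was not tested, and the levels of these 7 genes are uncertain. A further uncertainty is that 36 members have named pseudogenes (80 in all), and none of these is a line of the table.

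**Figure D1:**
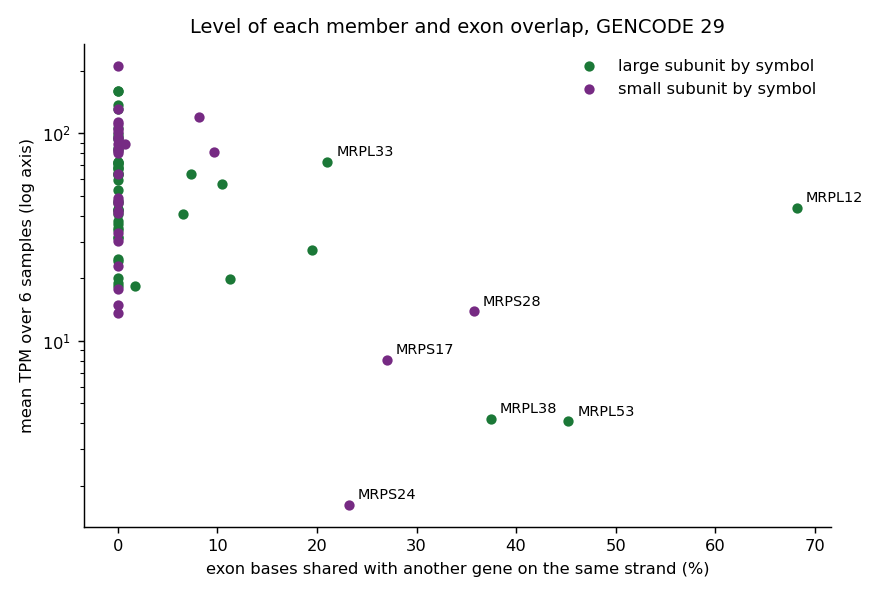
Mean TPM over the 6 samples (log axis) of each of the 79 members against the percentage of its exon bases that another gene shares on the same strand in GENCODE 29; points are genes, coloured by subunit. The 7 labelled genes share at least 20%, and MRPS24, MRPL53, MRPL38 and MRPS17 lie below all members that share less.

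Rises outnumbered falls in the large subunit, and the counts were nearly equal in the small subunit. Of the 79 members limma called 34 (43.0%) at a Benjamini-Hochberg adjusted p under 0.05, beside 50.1% of the 12793 genes tested. Higher in CSE were 24 (30.4%, beside 24.5% of all genes tested) and lower were 10 (12.7%, beside 25.6%). Changes of at least 1.2-fold were called for 8 members (10.1%, beside 23.5%). The 3 CSE and 3 WT values did not overlap for 37 members (46.8%), beside 57.4% of all genes tested. In bulk RNA a lower share can come from fewer transcripts per cell, from fewer cells that express a gene, or from a larger share held by other transcripts. These cannot be told apart.

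Of the 49 large-subunit genes 18 rose (36.7%) and 5 fell (10.2%), with a median log2 fold change of 0.057 (all genes tested: -0.0039). Of the 30 small-subunit genes 6 rose (20%) and 5 fell (16.7%), with a median of -0.0054. The middle 50% of log2 fold changes lay between -0.042 and 0.16 in the large subunit, between -0.094 and 0.085 in the small subunit, and between -0.15 and 0.14 over all genes tested. By the subunit in which the protein lies in structures, the counts were 19 higher and 5 lower of 51 in the large subunit and 5 and 5 of 27 in the small subunit. No p is given for lists chosen with these data known. Scaling moved these counts: with the mitochondrially encoded genes left out and the rest rescaled, 9 large-subunit genes were higher and 10 lower, and 4 small-subunit genes were higher and 11 lower, beside 18% higher and 34.7% lower over all genes tested, and 34.1% of all calls were higher in place of 48.9%.

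**Figure D2:**
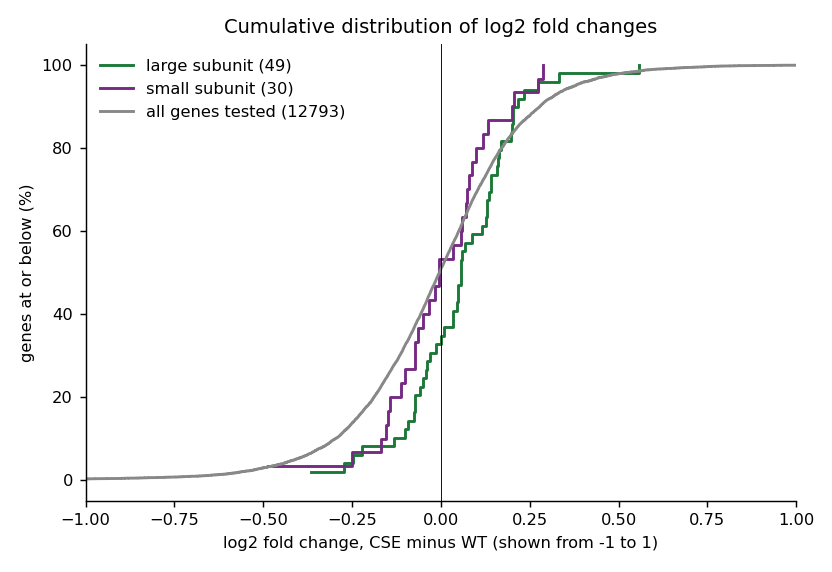
Cumulative percentage of genes (vertical axis) at or below each log2 fold change, CSE minus WT (horizontal axis, shown from -1 to 1), for the 49 large-subunit genes, the 30 small-subunit genes and all 12793 genes tested. The large-subunit curve lies to the right of the small-subunit curve over most of its length (medians 0.057 and -0.0054), and both are steeper than the curve of all genes.

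Summed over its genes, the large subunit had 2908, 2891 and 3042.5 TPM in the CSE samples and 2883, 2824 and 2703 TPM in the WT samples. The groups did not overlap, by a margin of few TPM between CSE replicate 2 and WT replicate 1, and the mean was 1.05-fold higher in CSE. The small subunit had 2023, 2003 and 2073.5 TPM in CSE and 2086, 2021 and 1989 TPM in WT, and these overlapped. Among large-subunit genes 33 had a higher mean in CSE, adding 195 TPM, and 16 a lower one, taking away 51.4 TPM. Among small-subunit genes 14 added 86.4 TPM and 16 took away 85.4 TPM, so that gains and losses nearly cancelled.

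The ratio of the small-subunit sum to the large-subunit sum was 0.6955, 0.6928 and 0.6815 in the CSE samples and 0.7237, 0.7156 and 0.7359 in the WT samples. A factor common to a library cancels in this ratio, and every CSE sample lay below every WT sample. With genes placed by structure it was 0.6127, 0.6101 and 0.6035 in CSE and 0.6472, 0.6415 and 0.6575 in WT. Without MRPL9 and MRPS25, left out after their values were seen, it was 0.6933, 0.6905 and 0.6794 in CSE and 0.7111, 0.7041 and 0.7242 in WT. Which subunit differed depended on the scale: with mitochondrially encoded genes left out, the large-subunit sums were 3919, 3896 and 4083.5 TPM in CSE and 3949, 3957 and 3872 TPM in WT and overlapped, and the small-subunit sums were 2726, 2699 and 2783 TPM in CSE and 2858, 2831.5 and 2849.5 TPM in WT and did not.

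**Figure D3:**
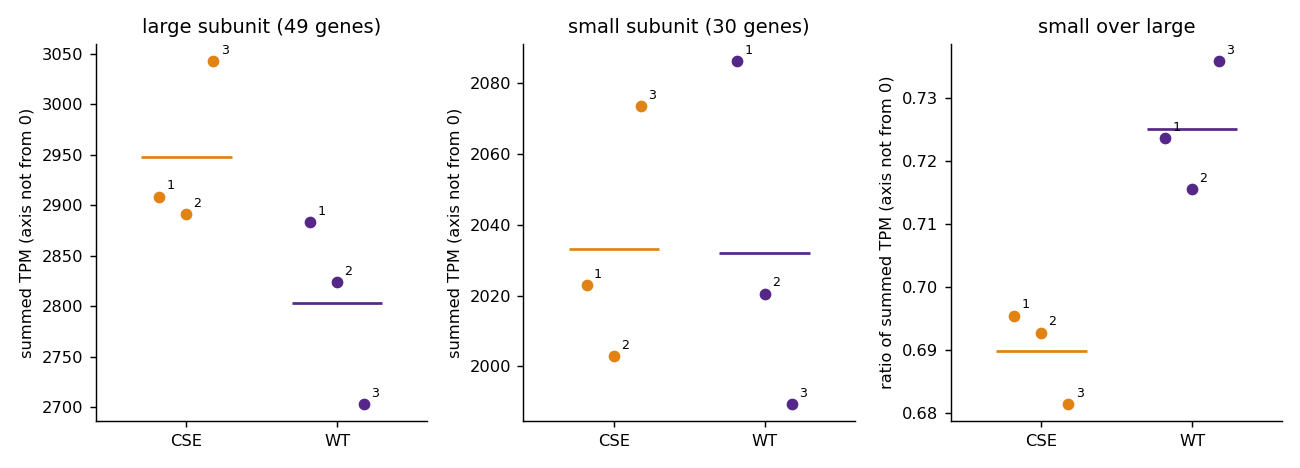
Summed TPM of the 49 large-subunit genes (left) and the 30 small-subunit genes (middle), and the ratio of small to large (right), in each CSE and WT sample; numbers are replicates, lines are means, and the axes do not start at 0. The small-over-large ratio is 0.6815 to 0.6955 in CSE and 0.7156 to 0.7359 in WT.

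Within the large subunit the leading rise was that of MRPL9, which encodes a protein with a bacterial counterpart (bL9m; chromosome 1, 151759643 to 151763564, minus strand, GENCODE 29 on GRCh38). It had 49.99, 49.2 and 48.1 TPM in CSE and 32.1, 34.4 and 32.7 TPM in WT. The 3 CSE values stood well above the 3 WT values, 1.49-fold in the means (limma log2 fold change 0.56 with SE 0.0463, adjusted p = 2.51e-09). An opposite-strand gene, OAZ3, covers 33.2% of its exon bases and was itself not called (log2 fold change -0.16, limma adjusted p = 0.212); the labels do not say whether the counting used strand.

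MRPL11 encodes the protein at the base of the stalk, where translation factors dock (chromosome 11, 66435075 to 66466738, minus strand). It had 74.5, 70.9 and 81.7 TPM in CSE and 60.9, 61.0 and 57.5 TPM in WT. CSE replicate 3 was the highest and the groups did not overlap (1.27-fold; limma log2 fold change 0.33 with SE 0.0493, adjusted p = 9.05e-06). Its stalk partner MRPL10 rose less, with 142.6, 141.7 and 143.7 TPM in CSE and 137.8, 130.3 and 123.5 TPM in WT (log2 fold change 0.13, limma adjusted p = 0.0145). That call was lost without the filter on low values (adjusted p = 0.0986), without the variance trend (0.064), without WT replicate 3 (0.0951) and with mitochondrially encoded genes left out (0.0777). MRPL12, the stalk protein itself, was at 43.1, 41.9 and 49.3 TPM in CSE and 44.2, 41.7 and 42.8 TPM in WT and did not pass (limma adjusted p = 0.387); its log2 fold change of 0.058 became -0.012 without CSE replicate 3.

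MRPL45 encodes the protein that tethers the ribosome to the inner membrane beside the exit of the nascent chain (chromosome 17, 38297023 to 38323218, plus strand). It had 114, 112 and 118 TPM in CSE and 97.7, 100.2 and 94.1 TPM in WT, without overlap (1.18-fold; limma log2 fold change 0.23 with SE 0.0408, adjusted p = 6.31e-05). Of the 8 proteins placed around the exit (MRPL17, MRPL22, MRPL23, MRPL24, MRPL39, MRPL44, MRPL45 and MRPL47), 4 rose and none fell as deposited (beside 24.5% and 25.6% of all genes tested). MRPL39 (0.16), MRPL44 (0.14) and MRPL23 (0.14) were the others, and the groups of MRPL39 and MRPL23 overlapped. These 3 calls were lost with mitochondrially encoded genes left out (adjusted p = 0.1001, 0.1343 and 0.1522), where MRPL17 was called lower (-0.11, 0.0148). In that fit 1 of the 8 rose and 1 fell, beside 18% and 34.7% of all genes tested. Without the filter only MRPL45 of the 8 was called, as higher, beside 2293 higher and 2553 lower of 20263 genes tested. That set also includes genes below the filter, which all members passed. Under quantile normalization MRPL45 and MRPL39 were called higher, beside 3472 higher and 3452 lower of 12793 genes tested. The central protuberance touches the small subunit and a structural tRNA. Of its 6 genes 1 rose (MRPL40, 0.20) and 1 fell (MRPL48, below), beside 24.5% and 25.6% of all genes tested, with a median of -0.028.

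MRPL13, which encodes a protein with a bacterial counterpart, had 66.3, 63.2 and 67.3 TPM in CSE and 55.4, 55.9 and 51.0 TPM in WT (1.21-fold, log2 fold change 0.27, limma adjusted p = 4.66e-05). The mitochondria-specific MRPL37 had 99.8, 101 and 101 TPM in CSE and 89.0, 86.2 and 84.1 TPM in WT (1.16-fold, log2 fold change 0.22, limma adjusted p = 0.000136). Neither gene's groups overlapped. MRPL32, whose product is trimmed by the m-AAA protease on entry into the matrix, had 26.6, 26.2 and 26.9 TPM in CSE and 24.9, 21.3 and 22.8 TPM in WT (log2 fold change 0.20, limma adjusted p = 0.00432), a call lost without the filter (0.0716) and without WT replicate 2 (0.0523).

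The falls in the large subunit were led by MRPL48, of the central protuberance (chromosome 11, 73787316 to 73865133, plus strand). It had 16.2, 15.8 and 17.4 TPM in CSE and 21.8, 21.5 and 21.1 TPM in WT, all CSE values below all WT values (1.30-fold lower; limma log2 fold change -0.37 with SE 0.0545, adjusted p = 1.01e-05). MRPL42, of the mitochondria-specific class, had 16.7, 16.5 and 16.6 TPM in CSE and 20.6, 20.7 and 19.5 TPM in WT (1.22-fold lower, log2 fold change -0.27, limma adjusted p = 0.000214). Its CSE values were almost the same in the 3 samples.

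MRPL50 had 17.1, 17.1 and 16.5 TPM in CSE and 20.2, 19.5 and 19.9 TPM in WT (log2 fold change -0.22, limma adjusted p = 0.00146). MRPL36, the counterpart of bacterial L36, had 33.4, 38.8 and 39.6 TPM in CSE and 42.2, 46.3 and 44.3 TPM in WT (log2 fold change -0.25, limma adjusted p = 0.00108), a call lost without the filter (0.0893). Both had groups that did not overlap. MRPL33 had 67.2, 69.2 and 72.5 TPM in CSE and 69.8, 84.1 and 75.7 TPM in WT, which overlapped. Its call was marginal (log2 fold change -0.13, limma adjusted p = 0.0475) and was lost under quantile normalization (0.0731), a robust prior (0.0538), no variance trend (0.141), median-of-ratios scaling (0.146) and no filter (0.313), and without any of 4 samples, most of all WT replicate 2 (-0.061, adjusted p = 0.388).

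**Figure D4:**
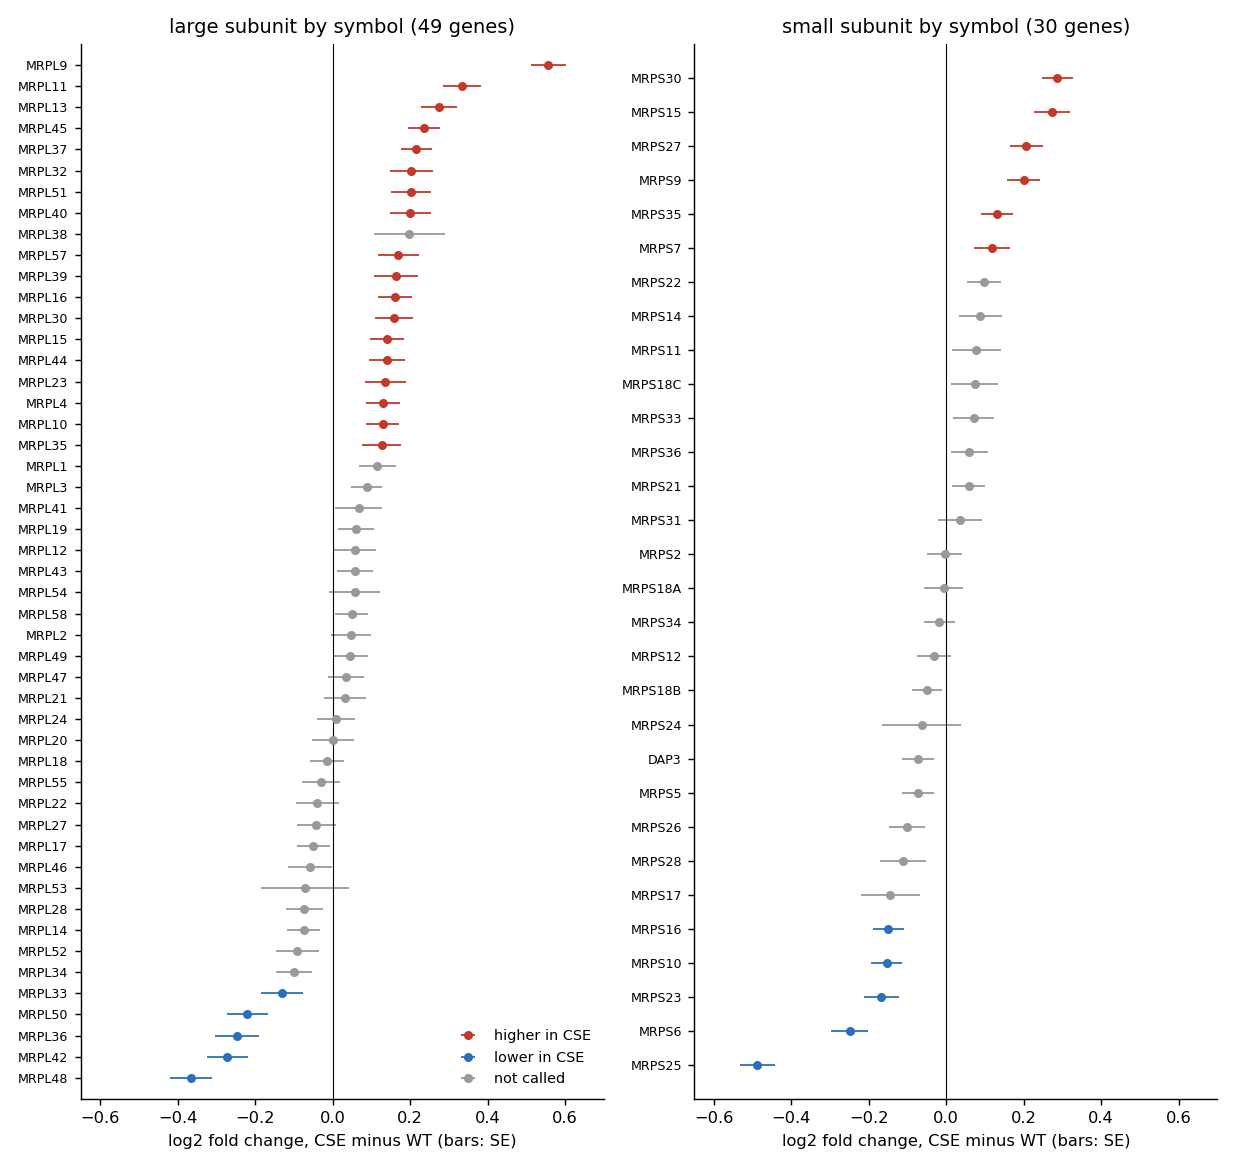
Difference of mean log2(TPM + 1) between CSE and WT (log2 fold change, CSE minus WT) for each large-subunit gene (left, 49) and small-subunit gene (right, 30) by symbol; points are fitted values, bars are standard errors, and colour gives the limma call. In the large subunit 18 genes were called higher and 5 lower, and in the small subunit 6 and 5.

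In the small subunit by symbol the leading rise was that of MRPS30, whose product lies in the large subunit (mL65; chromosome 5, 44808925 to 44820428, plus strand). It had 96.7, 98.7 and 97.6 TPM in CSE and 82.7, 78.2 and 78.8 TPM in WT, without overlap (1.22-fold; limma log2 fold change 0.29 with SE 0.0407, adjusted p = 5.41e-06). MRPS15, the counterpart of a bacterial protein that binds the small-subunit rRNA, had 116, 112 and 116 TPM in CSE and 102, 92.1 and 90.3 TPM in WT (1.21-fold; limma log2 fold change 0.27 with SE 0.0453, adjusted p = 3.7e-05). WT replicate 1 was the nearest to the CSE values and still below them.

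MRPS27, a protein of the pentatricopeptide repeat family, had 83.2, 90.3 and 85.3 TPM in CSE and 73.9, 75.5 and 74.5 TPM in WT (1.16-fold, log2 fold change 0.21, limma adjusted p = 0.000376). MRPS9, with a bacterial counterpart, had 87.9, 85.5 and 90.1 TPM in CSE and 78.3, 77.2 and 73.5 TPM in WT (1.15-fold, log2 fold change 0.20, limma adjusted p = 0.000474). In both genes all CSE values lay above all WT values. MRPS35 (0.13) and MRPS7 (0.12) were the other small-subunit genes called higher. Both calls were lost with mitochondrially encoded genes left out (adjusted p = 0.0751 for MRPS35 and 0.2256 for MRPS7), and that of MRPS7 also without the filter (0.0861) and under quantile normalization (0.0662).

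The largest fall among the 79 was that of MRPS25, a mitochondria-specific protein of the small subunit (chromosome 3, 15042460 to 15065335, minus strand). It had 41.2, 40.6 and 39.2 TPM in CSE and 59.0, 56.6 and 55.4 TPM in WT. The groups stood apart by more than the spread within either (1.41-fold lower; limma log2 fold change -0.49 with SE 0.045, adjusted p = 1.25e-08). The opposite-strand gene NR2C2 covers 22.2% of the exon bases of MRPS25. MRPS6 had 71.5, 71.7 and 80.4 TPM in CSE and 91.8, 88.4 and 85.9 TPM in WT (1.19-fold lower; limma log2 fold change -0.25 with SE 0.0474, adjusted p = 0.000168). CSE replicate 3 was the nearest to WT.

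MRPS23 had 38.0, 38.3 and 39.6 TPM in CSE and 44.7, 43.5 and 42.4 TPM in WT (log2 fold change -0.17, limma adjusted p = 0.00401). MRPS10 had 89.9, 90.1 and 92.6 TPM in CSE and 99.8, 103 and 100.5 TPM in WT (log2 fold change -0.15, limma adjusted p = 0.00278). Together with MRPS16 (-0.15) these made up the 5 falls, none of which had overlapping groups. They include proteins of both origins: MRPS6, MRPS10 and MRPS16 have bacterial counterparts, and MRPS23 and MRPS25 do not.

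**Figure D5:**
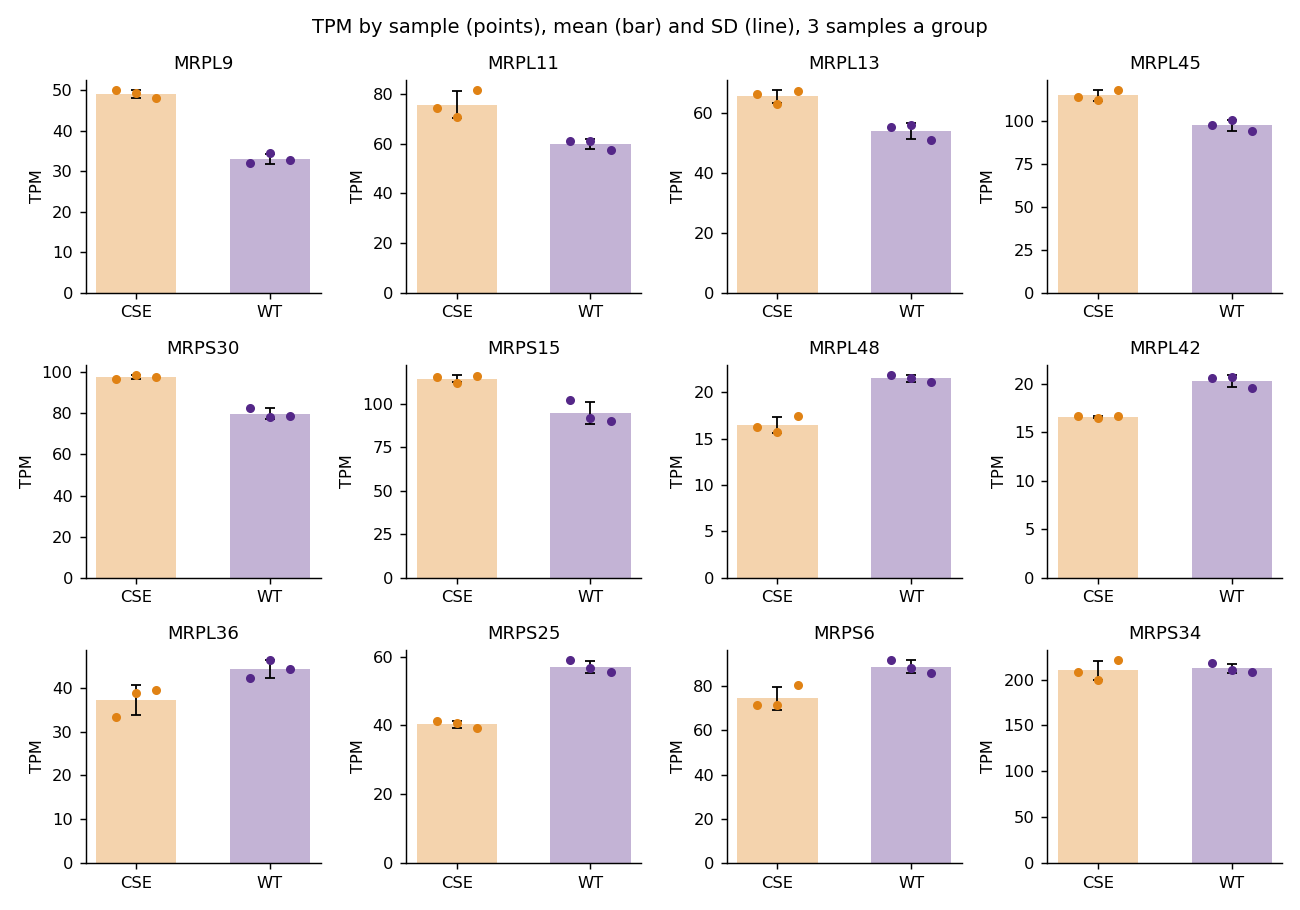
TPM (vertical axes, from 0) in the 3 CSE and 3 WT samples for 11 members with called changes and for MRPS34, the most abundant member; points are samples, bars are means and lines are SDs. The groups are separate in all panels but MRPS34, where CSE (200.01 to 221 TPM) and WT (209 to 218 TPM) overlap.

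DAP3, the GTP-binding protein of the subunit head that is also named for a role in cell death, had 109, 108 and 114 TPM in CSE and 119, 116 and 113 TPM in WT (log2 fold change -0.073, limma adjusted p = 0.142). It did not pass as deposited, but did as lower under quantile normalization (-0.11, adjusted p = 0.00795), without CSE replicate 3 (-0.097, 0.0384) and with mitochondrially encoded genes left out (-0.13, 0.00386). MRPS12, of the decoding centre, had 64.2, 61.2 and 64.0 TPM in CSE and 67.3, 63.4 and 63.1 TPM in WT and did not pass (log2 fold change -0.032, limma adjusted p = 0.565), though with mitochondrially encoded genes left out it did (-0.0895, 0.0495). MRPS28, with a bacterial counterpart, was at 13.3, 13.0 and 13.5 TPM in CSE and 13.4, 14.9 and 15.01 TPM in WT (log2 fold change -0.11, limma adjusted p = 0.123). Its call appeared without WT replicate 1 (adjusted p = 0.0444) and with mitochondrially encoded genes left out (0.0343).

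The 3 paralogues of bacterial S18 differ in their place: MRPS18C and MRPS18B lie in the small subunit and MRPS18A in the large. MRPS18B was by far the most abundant, with 131, 126 and 128 TPM in CSE and 134, 134 and 131 TPM in WT. MRPS18A had 31.3, 29.4 and 29.8 TPM in CSE and 31.9, 29.1 and 29.9 TPM in WT, and MRPS18C had 13.9, 14.1 and 13.9 TPM in CSE and 14.2, 13.2 and 12.4 TPM in WT. None of the 3 passed (limma adjusted p = 0.288, 0.924 and 0.326 for MRPS18B, MRPS18A and MRPS18C), but MRPS18B was called lower under quantile normalization (-0.086, adjusted p = 0.0287) and with mitochondrially encoded genes left out (-0.11, 0.0103).

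The 3 most abundant members were MRPS34, a mitochondria-specific protein of the small subunit, MRPL3 and MRPL18. MRPS34 had 209, 200.01 and 221 TPM in CSE and 218, 211 and 209 TPM in WT. MRPL3 had 169, 169 and 159 TPM in CSE and 157, 157 and 153 TPM in WT, without overlap, but missed the threshold (log2 fold change 0.088, limma adjusted p = 0.0686), which it passed with median-of-ratios scaling (0.10, 0.015) and without CSE replicate 3 (0.12, 0.00911). MRPL18 had 156, 160.3 and 159 TPM in CSE and 172, 156 and 153 TPM in WT. MRPL58, which releases chains from stalled ribosomes, had 97.7, 96.2 and 97.7 TPM in CSE and 99.5, 90.2 and 92.2 TPM in WT (limma adjusted p = 0.352).

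The counts by origin were as follows, with MRPL55 of the large subunit assigned to neither class. In the large subunit by structure, 11 of 30 proteins with bacterial counterparts rose and 2 fell (median 0.053), and 8 of 20 mitochondria-specific ones rose and 3 fell (median 0.062), beside 24.5% higher and 25.6% lower over all genes tested. In the small subunit the counts were 3 and 3 of 17 (median -0.032) and 2 and 2 of 10 (median 0.0084). With mitochondrially encoded genes left out they were 5 and 6 of 30 and 5 and 4 of 20 in the large subunit, and 2 and 7 of 17 and 1 and 4 of 10 in the small. Over all genes tested in that fit 18% were higher and 34.7% lower. These counts and medians are descriptions and were not tested against each other.

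The members lie on 21 chromosomes, and 27 of them (34.2%, beside 16.2% of genes tested) have a tested neighbour on the opposite strand whose 5′ end is within 1000 bases of their own. MRPL46 and MRPS11 are such a pair, with windows that share 181 bases; MRPL46 did not pass (log2 fold change -0.058, limma adjusted p = 0.416) and neither did MRPS11 (0.078, 0.324). Several neighbours are mitochondrial genes too: NDUFB5, a complex I gene beside MRPL47, rose (0.38, limma adjusted p = 2e-06) while MRPL47 was at 0.035 (0.553), and SARS2, the mitochondrial seryl-tRNA synthetase gene beside MRPS12, fell (-0.40, limma adjusted p = 0.00104). TWNK, beside MRPL43, also fell (-0.47), and MRPL43 did not pass (0.057, limma adjusted p = 0.320). NDUFS6, beside MRPL36 (0.069, limma adjusted p = 0.209), and MITD1, beside MRPL30 (0.073, 0.288), did not pass. Of the 26 pairs that hold a member 2 were called in the same direction (7.69%, beside 13.9% of 1016 other pairs): MRPL51 with the condensin gene NCAPD2 and MRPL57 with the kinetochore gene SKA3. NCAPD2 covers 31.3% of the exon bases of MRPL51 on the opposite strand, and whether the counting told the strands apart is not known. The call of MRPL57 was lost with mitochondrially encoded genes left out (adjusted p = 0.0518), and both calls without the filter (0.1415 for MRPL51 and 0.1192 for MRPL57). In 3 pairs (11.5%, beside 9.65% of the other pairs) the calls were opposite: MRPL50 with ZNF189, MRPS27 with PTCD2 and MRPS7 with GGA3.

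Other genes of mitochondrial translation moved in both directions. Of 4 mitoribosomal proteins with other symbols 2 rose (50%, beside 24.5% of all genes tested) and none fell. These were GADD45GIP1 of the large subunit (0.21, limma adjusted p = 0.0018) and AURKAIP1 of the small (0.17, 0.00668). CHCHD1 (0.098, limma adjusted p = 0.0872) and PTCD3 (-0.022, 0.717) did not pass. With mitochondrially encoded genes left out 1 of the 4 rose, beside 18% of all genes tested. Without the filter none of the 4 rose, beside 2293 of 20263 genes tested, a set that includes genes below the filter. Of 27 genes of assembly and rRNA modification 6 rose (22.2%, beside 24.5% of all genes tested) and 2 fell (7.41%, beside 25.6%), with a median of -0.024. With mitochondrially encoded genes left out 6 of the 27 rose and 7 fell, beside 18% and 34.7% of all genes tested. NOA1, a GTPase of small-subunit assembly, had 53.1, 52.5 and 51.5 TPM in CSE and 43.1, 42.6 and 41.7 TPM in WT (log2 fold change 0.30, limma adjusted p = 8.5e-06). MRM1, an rRNA methyltransferase, fell (-0.26, limma adjusted p = 0.0069), but its groups overlapped (8.97 to 10.19 TPM in CSE, 10.18 to 13.3 TPM in WT). The large-subunit assembly factor MALSU1 rose (0.25, limma adjusted p = 0.000388), without overlap.

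Of 15 translation factors 4 rose (26.7%, beside 24.5% of all genes tested) and 1 fell (6.67%, beside 25.6%), with a median of 0.0067. With mitochondrially encoded genes left out 3 of the 15 rose and 3 fell, beside 18% and 34.7% of all genes tested. The initiation factor gene MTIF2 (0.21, limma adjusted p = 0.000474), the insertase gene OXA1L (0.16, 0.00214) and the elongation factor gene GFM1 (-0.17, 0.0088) changed most, and TUFM, the abundant elongation factor, had 420, 418 and 429 TPM in CSE and 392.2, 377 and 376 TPM in WT (0.15, 0.00207). Of 15 genes of mitochondrial transcription and RNA processing 3 rose (20%, beside 24.5% of all genes tested) and 6 fell (40%, beside 25.6%), with a median of -0.043. Their counts were 2 higher and 7 lower with mitochondrially encoded genes left out, beside 18% and 34.7% of all genes tested. PNPT1, a polynucleotide phosphorylase, had 29.4, 28.7 and 28.6 TPM in CSE and 39.8, 41.4 and 40.5 TPM in WT (-0.48, limma adjusted p = 2.74e-08). TFB2M, a transcription initiation factor, fell (-0.22, 0.000688), and GRSF1, of the RNA granules, rose (0.22, 0.000178).

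Of the 13 mitochondrially encoded mRNAs, which this ribosome translates, 7 fell (53.8%, beside 25.6% of all genes tested) and none rose (median -0.15), as shares of the same libraries. The count depended on the fit. Under quantile normalization 3 rose and 3 fell, beside 3472 and 3452 of 12793 genes tested. With median-of-ratios scaling none rose and 2 fell, beside 3557 and 3302 of 12785. Without the filter none was called, beside 2293 higher and 2553 lower of 20263, a set that includes genes below the filter. Of 8 tested regulators of nuclear mitochondrial genes (PPARGC1A was below the filter) 2 rose (25%, beside 24.5%) and 4 fell (against 25.6% of all genes tested). With mitochondrially encoded genes left out none of the 8 rose and 4 fell, beside 18% and 34.7% of all genes tested. PPARGC1B (-0.57, limma adjusted p = 1.16e-06), MYC (-0.49, 4.31e-09) and PPRC1 (-0.43, 2.6e-07) fell furthest, YY1 fell (-0.25, 0.00011), and GABPA (0.18, 0.0138) and NRF1 (0.17, 0.0214) rose. Of 11 other mitochondrial genes (porins, import, citrate synthase and chaperones) 4 rose (36.4%) and 2 fell (18.2%), beside 24.5% and 25.6% of all genes tested (median -0.0016). HSPD1 (0.24, limma adjusted p = 1.28e-05) and TOMM22 (0.22, 0.000173) were higher and TOMM40 (-0.26, 5.82e-05) was lower. Counts for these 11 were 3 higher and 3 lower with mitochondrially encoded genes left out, beside 18% and 34.7% of all genes tested. Beside these, 39 of 79 cytosolic ribosomal protein genes rose (49.4%, beside 24.5% of all genes tested) and 1 fell (1.27%, beside 25.6%), with medians of 0.11 in the cytosolic large and 0.10 in the cytosolic small subunit, where the mitochondrial subunits had 0.057 and -0.0054. Under quantile normalization 20 cytosolic genes rose and 20 fell, beside 3472 and 3452 of 12793 genes tested. With mitochondrially encoded genes left out 26 cytosolic genes rose and 5 fell, beside 18% and 34.7% of all genes tested. The difference between the 2 ribosomes was not tested.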

How the data were processed

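RNA-seq of 6 HCT116 samples (3 CSE, 3 WT, grouped by the labels) was used. The authors deposited 1 table of TPM, all of whose sample columns were used. HISAT2 2.0, Trimmomatic 0.36, bedtools 2.26.0, FastQC 0.11.2 and the build GRCh38 are listed in the submitters' processing notes, without roles; no label states the counting program, annotation or strandedness. TPM keeps no depth, so no counting interval was computed, and a change in abundant transcripts moves all others.

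Symbols were matched for 20148 of 20263 Ensembl IDs. Genes with at least 1 TPM in at least 3 libraries were tested over the whole table on log2(TPM + 1) with limma 3.58.1 in R 4.3.3 (trend, no covariate, Benjamini-Hochberg threshold 0.05), as CSE minus WT; the pseudocount understates changes of low genes. The procedure was also run on simulated data in which few genes were changed and values were not shares of a fixed total. Those data differ from the deposited ones, where 50.1% of genes tested were called, and nothing is concluded from that run. Members, lists, roles and named-gene rule (the 6 largest called rises and falls of the large subunit, 4 of the small, members chosen by role, the 3 most abundant, and the 3 largest changes of each other list) were chosen with earlier results of these data known. TUFM, YY1, GABPA, NRF1, CHCHD1, PTCD3, the neighbouring genes, the genes of overlapping exons and the other members with a value were named beyond that rule, after their values were seen. The labels do not say that samples are separate cultures, so p-values reflect sample-to-sample spread that may be only technical. Positions are from GENCODE 29, promoters from RefSeq (GRCh38.p14), 1 window per gene. Alternatives were pseudocount, filter, scaling, variance prior, replicate block, subunit assignment and leaving out each sample.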

Additional observations from a re-analysis of the deposited data

How the results depend on the processing

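Of the 34 called members 10 kept a call as higher and 8 as lower in all 16 fits run (MRPL9, MRPL11, MRPL13, MRPL16, MRPL37, MRPL45, MRPS9, MRPS15, MRPS27 and MRPS30 higher; MRPL42, MRPL48, MRPL50, MRPS6, MRPS10, MRPS16, MRPS23 and MRPS25 lower). The share of all genes tested that kept a call in the 16 fits was not computed, so these counts have no background. Without the filter on low values 7 of 49 large-subunit genes were higher and 3 lower, beside 2293 and 2553 of 20263 genes tested. That set also includes genes below the filter, which all members passed, so the 2 shares are not alike. Under quantile normalization 9 of 30 small-subunit genes were lower, beside 3452 of 12793 genes tested. With mitochondrially encoded genes left out 9 large-subunit genes were higher and 10 lower, and 11 small-subunit genes were lower. Over all genes tested in that fit 18% were higher and 34.7% lower. The medians there were 0.0007 (large) and -0.062 (small), with the median of all genes at -0.059. Leaving out 1 sample gave 12 to 18 higher and 4 to 8 lower in the large subunit (8 without CSE replicate 3). In the small subunit it gave 4 to 6 higher and 5 to 7 lower. Over the 12793 genes tested these fits called 2528 to 3536 higher and 2601 to 3207 lower. Medians were 0.036 to 0.091 (large) and -0.029 to 0.035 (small, 0.035 without WT replicate 1). No called member changed sign under median-of-ratios scaling, quantile normalization, no filter or with mitochondrially encoded genes left out, and 3, 1, 0 and 7 members that were not called did. Of the genes named by rule and not called, those that changed sign were MRPS18A (0.0051 with median-of-ratios scaling, -0.034 to 0.030 leaving out 1 sample), MRPL58 (-0.008 with mitochondrially encoded genes left out), MRPL12 (-0.012 to 0.10), MRPS34 (-0.056 to 0.017) and MRPL18 (-0.048 to 0.036), each leaving out 1 sample. The cause was not tested. Whether the replicate numbers pair the samples is not stated in the labels. Deviations of same-numbered samples correlated at -0.071, 0.015 and -0.088 across genes, and those of other CSE and WT pairs at -0.089 to 0.123. These values show no sign of pairing but cannot settle the design. With the replicate as a block 18 large-subunit genes were higher and 5 lower, and 6 and 5 in the small. Over the 12793 genes tested that fit called 3188 higher and 3349 lower. The subunit medians there were 0.057 (large) and -0.0054 (small). Depth is unknown, and precision is limited by 3 samples a group.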
